A study of Homo sapiens with 6 samples.

Results

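The genes described here are 40 genes of mitosis, chosen by symbol, and all 40 were found among the 27988 genes named in the deposited transcript files. Mitosis is the stage of the cell cycle in which duplicated chromosomes are attached to a spindle of microtubules, pulled apart and packed into new nuclei. Cyclin B with the kinase CDK1 starts it, the kinases PLK1 and AURKA build the spindle, kinetochores hold the chromosomes to it, the spindle assembly checkpoint delays anaphase until every kinetochore is attached, and cytokinesis divides the cell. Most of these genes are transcribed late in the cell cycle under FOXM1 and the MuvB complex, so that in a keratinocyte culture their RNA is known to follow the share of dividing cells. In bulk RNA, fewer dividing cells and less RNA per dividing cell cannot be told apart.

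RNA was sequenced from HaCaT cells, an immortalised human keratinocyte line, in 3 libraries of cells given an siRNA against PSENEN and 3 libraries of cells given a mismatch siRNA. The PSENEN protein is part of γ-secretase, a protease known for cutting Notch receptors. All cells were grown with 10% serum and high glucose, the PSENEN siRNA was given at 100 pmol with a lipid reagent, and the dose of the mismatch siRNA is not stated. RNA was taken at 48 and 72 h, without a statement of which time each library holds. No label says that the 3 libraries of a group came from separate cultures, so each p-value rests on a spread among libraries that may be technical. PSENEN was 1.75, 2.08 and 1.496 TPM (transcript abundance scaled for length and depth) with the PSENEN siRNA and 6.58, 8.85 and 6.55 TPM with the mismatch siRNA, 24.2% of the mismatch mean (exact two-sided permutation p = 0.1, the smallest that 3 against 3 libraries allow; limma adjusted p = 0.0471).

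Read counts are absent from the values used here. The aligned sequence was estimated from coverage and FPKM (fragments scaled for length and depth). It came to 11.9, 11.3 and 9.16 gigabases with the PSENEN siRNA and 15.6, 13.7 and 11.5 gigabases with the mismatch siRNA. The libraries held 181298, 178848 and 167955 transcripts against 193153, 190642 and 185198, without overlap. The part of depth in the results below was not tested. Reference transcripts held 66.4% to 68.6% of TPM. Of 12 keratinocyte markers all 12 passed the filter, and their summed level was 3828 to 4666 TPM with the PSENEN siRNA and 4146 to 8659 TPM with the mismatch siRNA. With assembled transcripts, explained below, the sums were 4039.6 to 4672 TPM and 6155 to 9487 TPM, without overlap. Of these 12 markers 10 had a negative change in reference transcripts, against 54.6% of all genes tested. In 7 of the 12 the groups did not overlap, all lower, against 13.7% of all genes tested. None was called, against 0.281% of all genes tested called lower. The keratinocyte markers thus moved with the groups beside every result below, and their part in those results was not tested. Markers of fibroblasts, melanocytes and endothelial cells summed to at most 1.47 TPM in any library in reference transcripts and to at most 5.30 TPM with assembled transcripts. In reference transcripts, 4 of 7, 4 of 6 and 2 of 4 of them were at 0 in all libraries. Immune markers summed to 15.0 to 28.3 TPM, and 4 of the 7 were at 0 in all libraries.

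No mitosis gene passed the test for a change between the groups. Gene values were the sum of TPM over reference transcripts, compared on log2(TPM + 1) by limma with Benjamini-Hochberg adjustment over all genes that reached 1 TPM in 3 or more libraries, and a gene was called at an adjusted p under 0.05. All 40 mitosis genes were tested and 0 were called, against 0.281% of 15647 genes called lower and 0.128% called higher. At an unadjusted p under 0.05 there were 4 of the 40 (10%), PRC1, NUF2, ANLN and CDCA8, all with negative changes, against 13% of all genes tested. The lowest adjusted p among them was 0.0743, for PRC1. In none of 18 alternative settings was a mitosis gene called, and the lowest adjusted p in any setting was 0.0583.

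The values leaned to lower levels with the PSENEN siRNA by a small amount, as did those of all genes tested. The difference between the members and all genes was not tested. The change was negative for 26 of the 40 genes (65%) and positive for 14, with a median of -0.08 on the log2 scale, where 54.6% of all genes tested were negative with a median of -0.04. For 37 of the 40 the change lay between -0.5 and 0.5. In 9 of the 40 (22.5%) every library with the PSENEN siRNA lay below every mismatch library, against 13.7% of all genes tested: CCNB2, BUB1B, CDC20, CDCA8, CENPF, NUF2, PRC1, HMMR and ANLN. In 0 of the 40 did the groups separate in the other direction, against 8.21% of all genes tested. The standard error of the change was 0.08 to 0.87, with a median of 0.14.

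All 40 genes were expressed in all 6 libraries, from 5.57 TPM (CENPE in mismatch library 3) to 175 TPM (CDC25B in mismatch library 2), and 14 averaged above 50 TPM. Their summed level was 1971, 2029.9 and 2082 TPM with the PSENEN siRNA and 2204, 2164 and 2220.2 TPM with the mismatch siRNA. The groups did not overlap, and the sum with the PSENEN siRNA was 92.3% of the mismatch mean (2028 ± 55.2 against 2196 ± 29.1 TPM, SD, n = 3 each). Without PRC1 and ANLN, left out after their values were seen, the sums were 1897 ± 47.2 and 1984 ± 38.9 TPM and the groups overlapped. In FPKM as deposited the 40 genes summed to 736, 741 and 782 with the PSENEN siRNA and to 765, 764 and 797 with the mismatch siRNA, so the groups also overlapped on that scale, at 97.1% of the mismatch mean. With median-of-ratios scaling of TPM the sums did not overlap, at 1974, 2011 and 2048 against 2087, 2071 and 2161, or 95.5% of the mismatch mean.

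**Figure D1:**
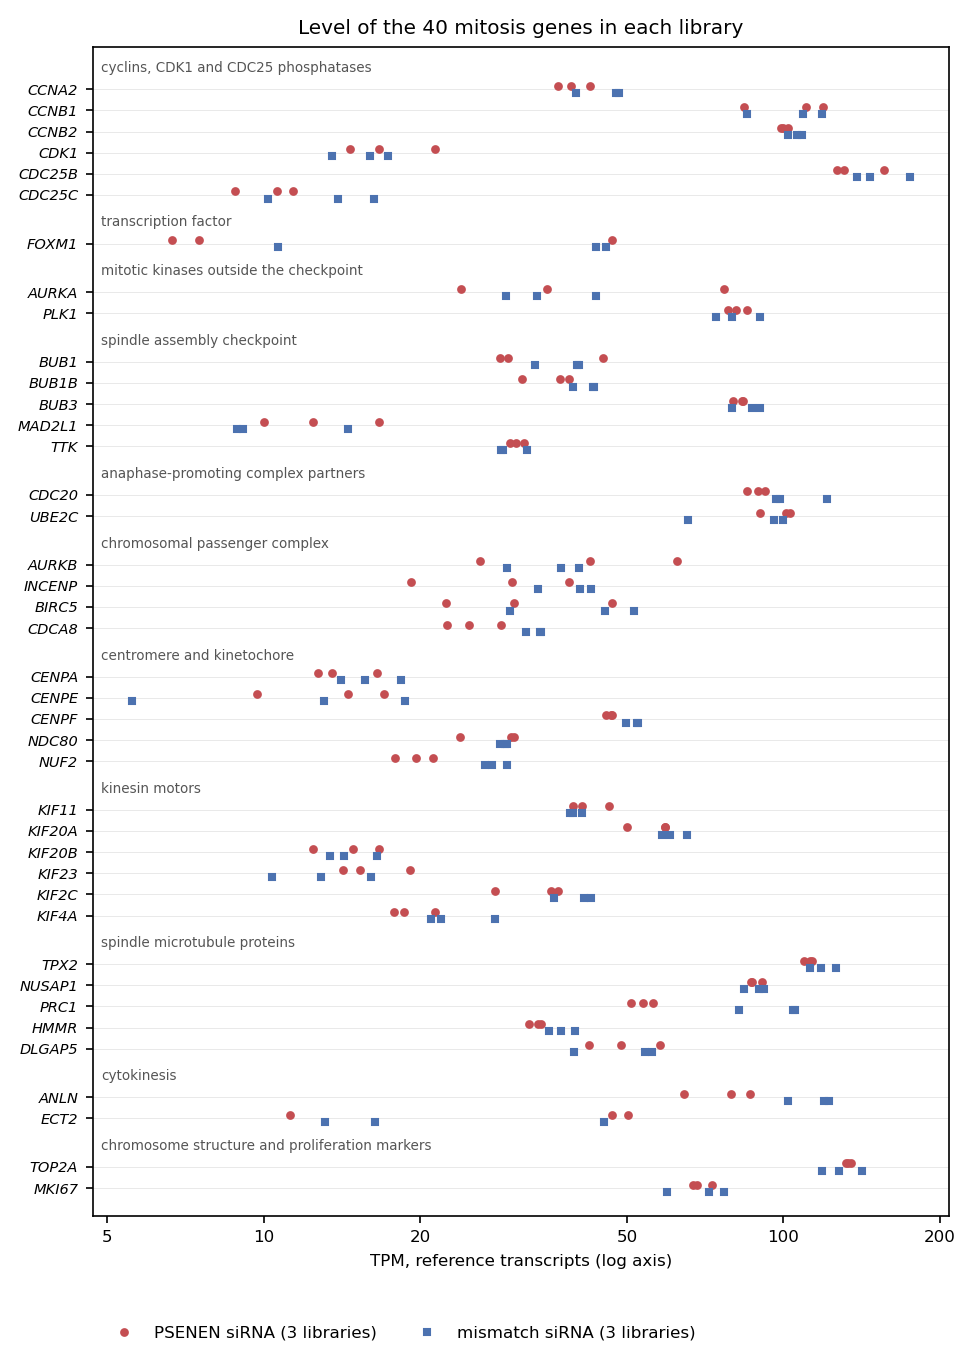
Level of each of the 40 mitosis genes in TPM (log axis) in the 3 PSENEN siRNA libraries (circles) and the 3 mismatch siRNA libraries (squares), grouped by role. The groups overlap for most genes, PRC1, ANLN, NUF2 and CDCA8 lie lower with the PSENEN siRNA, and FOXM1 and ECT2 jump between libraries of the same group.

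The members share promoter sequence that the choice by symbol did not use. Genes of this kind are known for a cell cycle homology region, the hexamer TTTGAA near the start site, which MuvB binds, and for CCAAT boxes, which NF-Y binds. RefSeq promoters on GRCh38.p14, each from 250 bases before to 50 bases after a start, were matched by symbol for 33 of the 40 genes, with 42 promoters. TTTGAA occurred on either strand in 28 of the 42 (66.7%) against 15.2% of all 35116 promoters of the same length, and on the gene's own strand in 26 (61.9%) against 8.40%. Between 60 and 1 bases before the start, on the gene's strand, it occurred in 14 (33.3%) against 1.41%. CCAAT occurred on either strand in 31 (73.8%) against 34.6%, and the palindrome TTTAAA in 12 (28.6%) against 12.2%. These are letter matches and not measured binding.

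The last 100 bases before the start are shown for the 4 genes with an unadjusted p under 0.05 and for CCNB2 and PLK1, abundant members whose changes were near 0. Capitals mark the 3 motifs on either strand (those on the other strand appear as their reverse complement), and each sequence runs 5′ to 3′ on the gene's strand.
PRC1, chr15:90994536-90994635, minus strand: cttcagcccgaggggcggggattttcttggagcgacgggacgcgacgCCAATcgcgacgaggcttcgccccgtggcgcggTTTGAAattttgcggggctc
ANLN, chr7:36389762-36389861, plus strand: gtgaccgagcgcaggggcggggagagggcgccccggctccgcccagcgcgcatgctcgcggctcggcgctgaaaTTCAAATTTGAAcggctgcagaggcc
CDCA8, chr1:37692416-37692515, plus strand: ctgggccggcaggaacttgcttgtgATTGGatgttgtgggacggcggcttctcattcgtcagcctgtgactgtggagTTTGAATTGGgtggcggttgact
NUF2, chr1:163321854-163321953, plus strand: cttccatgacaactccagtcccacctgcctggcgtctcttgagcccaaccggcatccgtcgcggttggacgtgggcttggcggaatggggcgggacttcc
CCNB2, chr15:59105046-59105145, plus strand: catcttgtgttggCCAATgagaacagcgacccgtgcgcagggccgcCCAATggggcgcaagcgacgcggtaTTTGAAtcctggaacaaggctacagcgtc
PLK1, chr16:23678789-23678888, plus strand: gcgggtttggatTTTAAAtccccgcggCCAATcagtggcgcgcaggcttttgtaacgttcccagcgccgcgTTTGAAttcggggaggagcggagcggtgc

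TTTGAA begins 20 bases before the start in PRC1 and in ANLN, where a match on the other strand adjoins it, 23 bases before it in CDCA8 and 29 bases before it in CCNB2 and PLK1. The NUF2 window holds none of the marked words. PRC1, at 55.1% of the mismatch mean, ANLN, at 66.9%, and PLK1, with a log2 change of 0.01, thus hold TTTGAA within the same stretch.

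The cyclins, CDK1 and the CDC25 phosphatases showed 4 negative and 2 positive changes among 6 genes, with a median of -0.11. CDC25B, a phosphatase that removes inhibitory phosphates from CDK1, was the most abundant member, at 127, 131 and 156 TPM with the PSENEN siRNA and 146, 175 and 138 TPM with the mismatch siRNA, and the groups overlapped (log2 change -0.15, SE 0.13, adjusted p = 0.670). CCNB1, the cyclin B that drives entry into mitosis with CDK1, was at 84.1, 110.5 and 119 TPM against 109, 85.0 and 119 TPM, nearly the same range in both groups (log2 change 0.00, SE 0.18, adjusted p = 0.996). CCNB2, the other mitotic cyclin B, was at 99.8, 102 and 99.1 TPM against 109, 106 and 102 TPM. Its groups did not overlap, yet the gap between them was under 1 TPM and the log2 change was -0.07 (SE 0.08, adjusted p = 0.724). CCNA2, the cyclin of S phase and G2, averaged 39.5 TPM against 45.2 TPM, CDK1 itself 17.5 TPM against 15.6 TPM, and CDC25C, another activator of CDK1, 10.3 TPM against 13.5 TPM, all with overlapping groups.

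FOXM1, the transcription factor that activates many of these genes, had the most negative change in reference transcripts, and that value depends on how transcripts were assigned. Its reference transcripts summed to 6.68, 46.9 and 7.51 TPM with the PSENEN siRNA and to 45.6, 10.7 and 43.6 TPM with the mismatch siRNA, so each group held both high and low libraries (log2 change -0.98, SE 0.87, adjusted p = 0.671). StringTie, which assembled each library separately, can place reads of a gene in a transcript of the reference or in a newly assembled one. With assembled transcripts that share an intron with FOXM1 added, the sums were 63.8, 66.5 and 68.8 TPM against 65.2, 78.2 and 59.3 TPM and the log2 change was -0.02 (SE 0.12). The reference share of FOXM1 in these sums was 10.5% to 73.5% over the 6 libraries, and the annotation places ITFG2 and RHNO1 on the opposite strand over it.

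Such moves between reference and assembled transcripts touched other members as well. In 7 of the 40 genes reference transcripts held under 50% of the sum in at least 1 library, while in 8 both sums were the same in all libraries (within 0.1%). Assembled transcripts that share introns with more than 1 gene enter neither sum. Such transcripts were found for BUB1B, NUSAP1 and PRC1, and NUSAP1 and PRC1 are among these 8. With the assembled transcripts added, 28 of the 40 changes were negative and 12 positive, with a median of -0.09 beside -0.05 over all 16360 genes tested. In 10 of the 40 (25%) the groups did not overlap and were lower, against 14.3% of all genes, and 1 of the 40, KIF20B, had groups that separated upward. Both ways of summing gave 24 negative, 10 positive and 6 opposite signs, and 7 members did not overlap and were lower in both. The shares of all genes that separated upward with assembled transcripts, or downward in both sums, were not computed. The summed level of the 40 genes was then 2279, 2250.2 and 2336 TPM against 2521, 2532 and 2405 TPM, 92.1% of the mismatch mean, and without PRC1 and ANLN its groups overlapped again. The mean log2(TPM + 1) of all 40 genes overlapped by little with assembled transcripts, at 5.59318, 5.56348 and 5.63267 against 5.68977, 5.74498 and 5.63254. In reference transcripts that mean did not overlap, at 5.29, 5.34 and 5.35 against 5.45, 5.42 and 5.47.

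**Figure D2:**
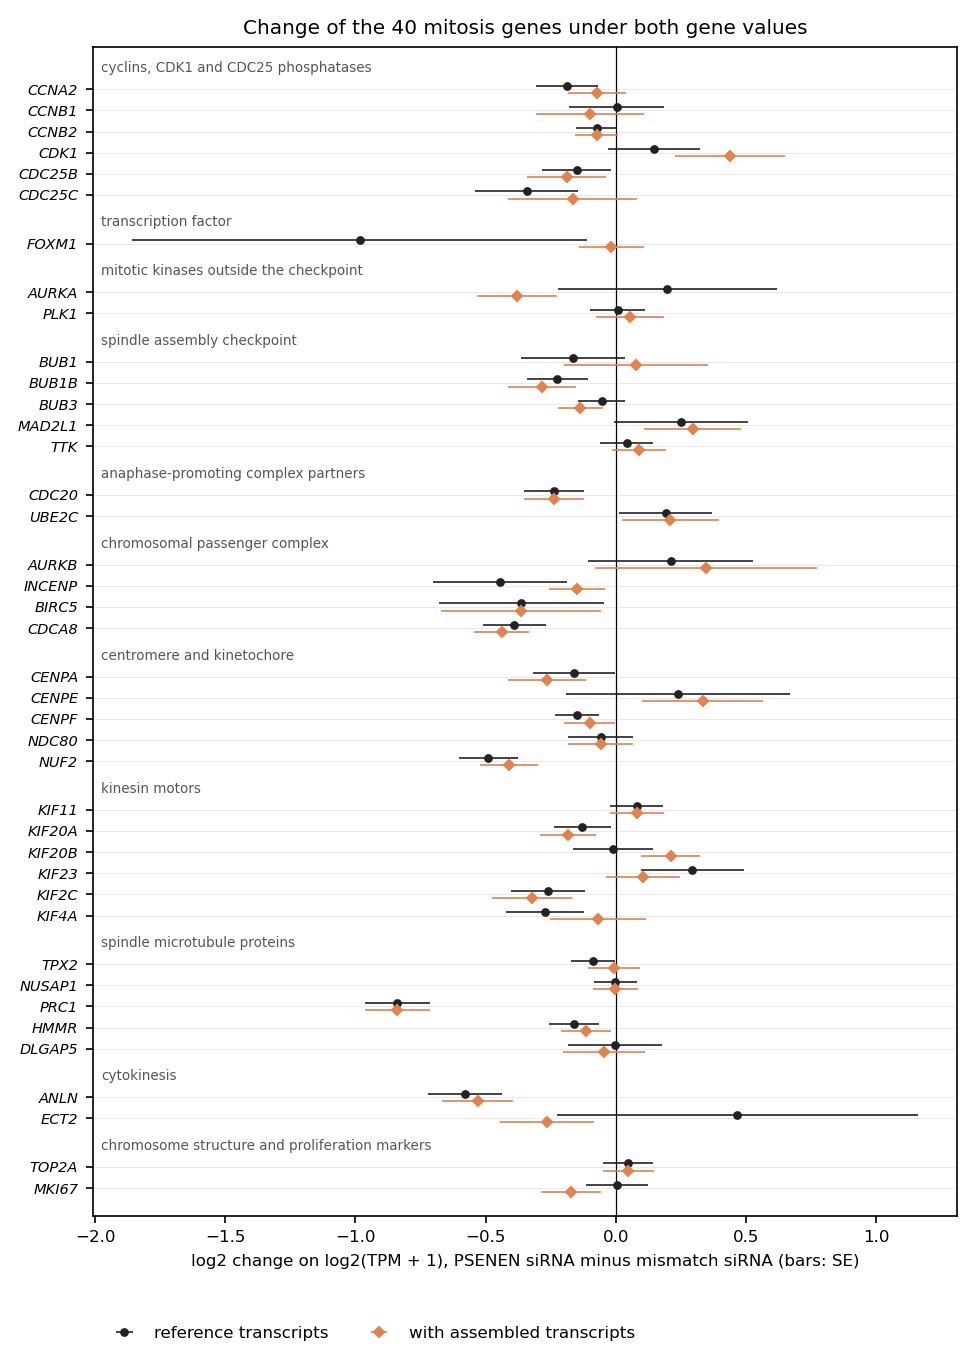
Log2 change on log2(TPM + 1), PSENEN siRNA minus mismatch siRNA, of the 40 mitosis genes from reference transcripts (circles) and with assembled transcripts added (diamonds), with bars for 1 standard error. Most values lie between -0.5 and 0.5, and FOXM1, AURKA and ECT2 differ most between these sums. PRC1 has the same value of -0.84 by both, where assembled transcripts shared with another gene are left out.

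The kinases AURKA and PLK1, which drive the maturation of spindle poles and the assembly of the spindle, did not separate the groups in reference transcripts. PLK1 was at 78.3, 80.9 and 85.2 TPM with the PSENEN siRNA and 90.2, 79.7 and 74.0 TPM with the mismatch siRNA (log2 change 0.01, SE 0.11, adjusted p = 0.984). AURKA was at 35.1, 24.0 and 77.0 TPM against 29.2, 33.5 and 43.6 TPM, with the highest and the lowest library both in the PSENEN siRNA group (log2 change 0.20, SE 0.42, adjusted p = 0.870). With assembled transcripts AURKA was at 84.7, 59.96 and 84.8 TPM against 93.8, 98.9 and 103 TPM. The groups then did not overlap and the sign was opposite, with a log2 change of -0.38 (SE 0.15, adjusted p = 0.337).

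In the spindle assembly checkpoint, 3 of 5 genes had negative changes and the median was -0.05 in reference transcripts, and 2 of 5 were negative with a median of 0.08 with assembled transcripts. BUB3, which carries BUB1 and the BUB1B product to kinetochores, was at 79.9, 83.6 and 83.3 TPM with the PSENEN siRNA and 79.7, 90.0 and 87.0 TPM with the mismatch siRNA (log2 change -0.05, SE 0.09, adjusted p = 0.822). With assembled transcripts the BUB3 groups did not overlap, at 79.9, 83.6 and 83.3 TPM against 94.8, 90.0 and 87.0 TPM (log2 change -0.14, SE 0.09, adjusted p = 0.527). BUB1B, whose product BubR1 is part of the inhibitor of the anaphase-promoting complex, was at 38.7, 31.4 and 37.2 TPM against 39.3, 43.0 and 43.2 TPM. The BUB1B groups did not overlap, with PSENEN siRNA library 2 lowest (log2 change -0.22, SE 0.12, adjusted p = 0.475). When assembled transcripts that share introns with BUB1B and the readthrough gene BUB1B-PAK6 were counted as well, the sums were 44.7, 31.4 and 45.6 TPM against 45.3, 48.8 and 43.2 TPM, and the groups overlapped. The kinase BUB1 averaged 34.3 TPM against 37.9 TPM, the kinase TTK 30.7 TPM against 29.8 TPM, and MAD2L1, which is made into the inhibitor at unattached kinetochores, 13.0 TPM against 10.8 TPM, each with overlapping groups. With assembled transcripts BUB1 averaged 46.1 TPM against 41.9 TPM, the opposite sign, again with overlap.

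The partners of the anaphase-promoting complex had values of opposite sign. CDC20, the activator of the complex that the checkpoint holds back, was at 89.3, 85.1 and 92.0 TPM with the PSENEN siRNA and 121, 96.7 and 98.3 TPM with the mismatch siRNA, groups that did not overlap (log2 change -0.24, SE 0.12, adjusted p = 0.449). UBE2C, the ubiquitin-conjugating enzyme that works with the complex, was at 103, 90.3 and 101 TPM against 99.94, 65.6 and 96.0 TPM, with mismatch library 2 below the rest (log2 change 0.19, SE 0.18, adjusted p = 0.685). The pseudogene CDC20P1 and other genes hold 20.3% of the 31-base words of CDC20, so reads could be split between them.

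Within the chromosomal passenger complex, which corrects faulty attachments and later moves to the midzone, 3 of 4 genes had negative changes, with a median of -0.38. CDCA8, which encodes borealin, was at 28.6, 22.5 and 24.9 TPM with the PSENEN siRNA and 31.9, 34.0 and 34.2 TPM with the mismatch siRNA. Its groups did not overlap and the mean was 75.9% of the mismatch mean, but it was not called (log2 change -0.39, SE 0.12, adjusted p = 0.273). AURKB, the kinase of the complex, was at 62.3, 26.1 and 42.4 TPM against 40.4, 29.3 and 37.3 TPM, with both extremes in the PSENEN siRNA group (log2 change 0.21, SE 0.32, adjusted p = 0.805). BIRC5, which encodes survivin, was at 46.9, 30.4 and 22.5 TPM against 45.4, 51.6 and 29.8 TPM, again with overlap (log2 change -0.36, SE 0.32, adjusted p = 0.665). INCENP, the scaffold, averaged 29.3 TPM against 38.9 TPM, and its transcripts are described below.

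Among 5 genes of the centromere and kinetochore 4 had negative changes, with a median of -0.15. NUF2, a subunit of the NDC80 complex that grips microtubules, was at 17.9, 19.7 and 21.2 TPM with the PSENEN siRNA and 29.4, 26.6 and 27.5 TPM with the mismatch siRNA. The groups did not overlap, and the mean was 70.3% of the mismatch mean (log2 change -0.49, SE 0.11, adjusted p = 0.154). NDC80, the partner of NUF2 in that complex, was at 23.8, 29.9 and 30.3 TPM against 29.5, 29.1 and 28.5 TPM, with groups that overlapped (log2 change -0.06, SE 0.13, adjusted p = 0.872). CENPF, a large protein of the outer kinetochore, was at 45.6, 46.8 and 46.5 TPM against 49.8, 52.4 and 52.4 TPM, a narrow gap without overlap (log2 change -0.15, SE 0.08, adjusted p = 0.507). With assembled transcripts the CENPF groups overlapped (log2 change -0.10, SE 0.10, adjusted p = 0.691). CENPA, the histone H3 variant that marks centromeres, averaged 14.3 TPM against 16.0 TPM, and CENPE, a kinesin that carries chromosomes to the spindle equator, 13.7 TPM against 12.4 TPM, both with overlap.

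In reference transcripts none of the 6 kinesin motors separated the groups, and 4 of the 6 changes were negative, with a median of -0.07. With assembled transcripts 3 of the 6 were negative and the median was 0.01. KIF20A, which works in the midzone and in cytokinesis, was at 59.2, 59.2 and 50.1 TPM with the PSENEN siRNA and 65.3, 58.4 and 60.5 TPM with the mismatch siRNA (log2 change -0.13, SE 0.11, adjusted p = 0.654). With assembled transcripts KIF20A was at 59.2, 59.2 and 50.1 TPM against 65.3, 65.5 and 60.5 TPM and the groups did not overlap (log2 change -0.18, SE 0.11, adjusted p = 0.493). KIF11, the motor that pushes spindle poles apart, was at 40.9, 46.1 and 39.4 TPM against 38.8, 41.0 and 39.4 TPM (log2 change 0.08, SE 0.10, adjusted p = 0.767). KIF2C, a microtubule depolymerase, averaged 33.5 TPM against 40.1 TPM, and KIF4A, a motor that binds chromosome arms and works with PRC1, 19.3 TPM against 23.6 TPM. KIF20B, a motor of late mitosis and cytokinesis, averaged 14.7 TPM against 14.7 TPM in reference transcripts. With assembled transcripts it was at 18.4, 18.8 and 21.4 TPM against 16.6, 17.4 and 16.2 TPM, higher in all 3 PSENEN siRNA libraries without being called (log2 change 0.21, SE 0.11, adjusted p = 0.458). KIF23, a subunit of centralspindlin, averaged 16.2 TPM against 13.1 TPM in reference transcripts, which held only 20.05% to 36.2% of its sum with assembled transcripts. Of the 31-base words of KIF4A 27.9% are shared, chiefly with its copy KIF4B, which was itself at 0.329 to 0.490 TPM.

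All 5 spindle microtubule proteins had negative changes, of which only that of PRC1 was below -0.5. PRC1 crosslinks antiparallel microtubules in the spindle midzone and is needed for cytokinesis. It was at 51.0, 56.1 and 53.7 TPM with the PSENEN siRNA and 82.0, 104 and 105 TPM with the mismatch siRNA, so that the highest PSENEN siRNA library lay 25.9 TPM below the lowest mismatch library. The means were 53.6 ± 2.55 and 97.2 ± 13.1 TPM (SD, n = 3 each), 55.1% of the mismatch mean (log2 change -0.84, SE 0.13, adjusted p = 0.0743). PRC1 therefore missed the threshold, and it was not called in any of the 18 settings.

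The PRC1 value carries limits of annotation. The readthrough gene AC068831.7 and other genes hold 56.4% of the 31-base words of PRC1 transcripts, and the antisense gene PRC1-AS1 overlaps it. When assembled transcripts that share introns with PRC1 and another gene were counted, PRC1 was at 70.0, 66.7 and 67.5 TPM against 82.0, 124 and 105 TPM, 65.7% of the mismatch mean and still without overlap.

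The other spindle proteins lay close to the mismatch level. TPX2, which activates AURKA and nucleates microtubules, was at 109, 112 and 113 TPM with the PSENEN siRNA and 126, 113 and 118 TPM with the mismatch siRNA, groups that overlapped by little (log2 change -0.09, SE 0.08, adjusted p = 0.698). NUSAP1, a microtubule bundler, was at 90.9, 87.1 and 86.6 TPM against 91.6, 89.5 and 83.9 TPM (log2 change 0.00, SE 0.08, adjusted p = 0.995), and 61.6% of its 31-base words are shared, chiefly with the readthrough gene AC087721.2. When assembled transcripts that share introns with NUSAP1 and another gene were counted, NUSAP1 was at 90.9, 118 and 103 TPM against 91.6, 112 and 83.9 TPM. That was 108% of the mismatch mean, with overlapping groups. HMMR, which supports spindle poles, was at 34.1, 32.4 and 33.8 TPM against 37.4, 35.4 and 39.6 TPM, a gap without overlap that was not called (log2 change -0.16, SE 0.10, adjusted p = 0.527). With assembled transcripts the HMMR groups overlapped. DLGAP5, which stabilises kinetochore fibres, averaged 49.6 TPM against 49.9 TPM.

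In cytokinesis, ANLN was lower without being called, and ECT2 varied between libraries of the same group. ANLN encodes anillin, the scaffold of the contractile ring, and was at 64.4, 86.4 and 79.2 TPM with the PSENEN siRNA and 122, 119.6 and 102 TPM with the mismatch siRNA. The groups did not overlap, at 66.9% of the mismatch mean (log2 change -0.58, SE 0.14, adjusted p = 0.174), and did not overlap with assembled transcripts either, at 70.7, 94.7 and 88.5 TPM against 133, 119.6 and 113 TPM. The strandedness of the libraries is not given in the sources used here, and KIAA0895 lies on the opposite strand over ANLN, as RGS5 does over NUF2. ECT2, the exchange factor that switches on RhoA at the cleavage furrow, was at 11.2, 46.7 and 50.1 TPM against 13.1, 16.3 and 45.2 TPM in reference transcripts, with low libraries in both groups (log2 change 0.47, SE 0.69, adjusted p = 0.801). With assembled transcripts ECT2 was at 54.3, 57.4 and 53.9 TPM against 78.8, 74.7 and 49.8 TPM, with the opposite sign and overlapping groups (log2 change -0.26, SE 0.18, adjusted p = 0.561).

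TOP2A and MKI67, often read as markers of proliferation, had overlapping groups under both gene values. TOP2A, the topoisomerase that untangles sister chromatids, was at 132, 135 and 133 TPM with the PSENEN siRNA and 119, 128 and 142 TPM with the mismatch siRNA, with the PSENEN siRNA libraries inside the mismatch range (log2 change 0.05, SE 0.10, adjusted p = 0.860). MKI67, which encodes the Ki-67 protein that coats mitotic chromosomes, was at 72.8, 67.1 and 68.3 TPM against 59.7, 71.9 and 76.7 TPM, also inside the mismatch range (log2 change 0.01, SE 0.12, adjusted p = 0.988). With assembled transcripts MKI67 was at 85.4, 71.5 and 68.3 TPM against 81.1, 88.9 and 83.2 TPM, with the opposite sign (log2 change -0.17, SE 0.11, adjusted p = 0.552), while the TOP2A sums were the same.

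**Figure D3:**
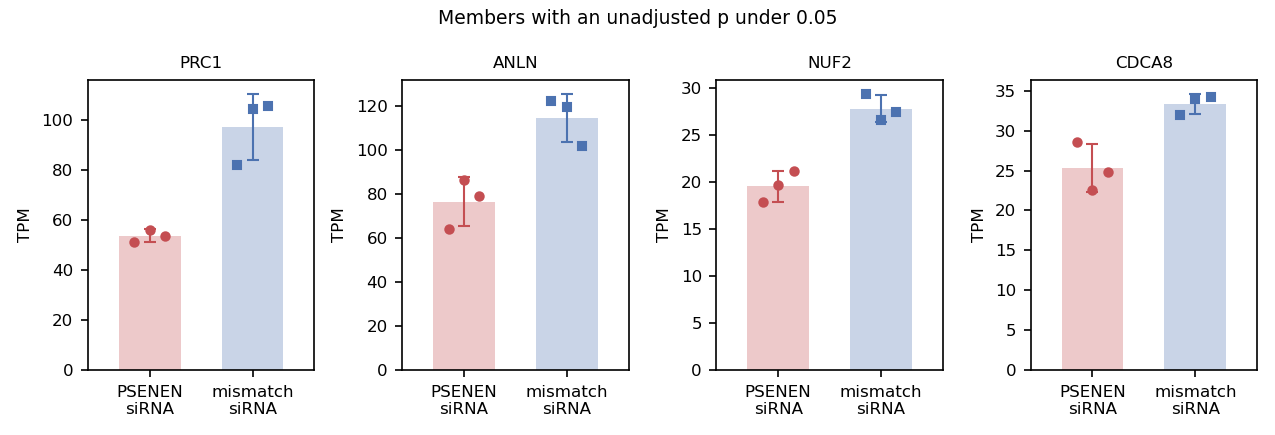
TPM of PRC1, ANLN, NUF2 and CDCA8, the members with an unadjusted p under 0.05, in the 3 PSENEN siRNA libraries (circles) and the 3 mismatch siRNA libraries (squares). Bars are means and error bars are SD (n = 3); the groups do not overlap in any of the 4, and none was called.

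Single transcripts were tested in the same way, and none of a mitosis gene was called. The files name 256 reference transcripts of the 40 genes, of which 107 passed the filter and 0 were called, against 0.225% of 26204 transcripts called lower and 0.145% called higher. At an unadjusted p under 0.05 there were 10 of the 107, of which 8 were lower and 2 higher with the PSENEN siRNA, against 9.48% of all transcripts tested. The most abundant reference transcript was the same in all 6 libraries for 22 of the 40 genes and differed for 18.

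ANLN-202 (ENST00000396068) had the smallest p. It was at 0.181, 2.21 and 0.429 TPM with the PSENEN siRNA and 12.6, 23.2 and 11.03 TPM with the mismatch siRNA, without overlap (log2 change -3.17, SE 0.48, adjusted p = 0.0841). It lacks exon 9 of ANLN-201 (ENST00000265748), 111 coding bases at chr7:36417080-36417190 on the plus strand of GRCh38, and the longer ANLN-201 was at 62.9, 82.8 and 75.3 TPM against 108, 94.5 and 89.9 TPM. The exon is shown in capitals with 20 bases of its neighbouring exons, and below it the junction that skips it, from GENCODE 29 transcripts.
ANLN-201: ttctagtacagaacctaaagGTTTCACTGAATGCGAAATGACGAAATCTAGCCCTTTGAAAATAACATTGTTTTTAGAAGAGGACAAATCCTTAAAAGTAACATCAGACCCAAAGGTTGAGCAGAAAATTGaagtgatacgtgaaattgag
ANLN-202: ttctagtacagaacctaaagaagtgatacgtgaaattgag

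Over all transcripts of each library, reference and assembled, those with exon 9 held 99.7%, 88.7% and 99.4% of the TPM with either junction in the PSENEN siRNA libraries and 89.5%, 80.3% and 80.2% in the mismatch siRNA libraries. These shares overlapped, since PSENEN siRNA library 2 also held an assembled transcript without the exon. Read counts over the junctions are not in the values used here, so the error of each share is unknown.

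INCENP-202 (ENST00000394818) came next, at 7.45, 0.0183 and 0.0170 TPM with the PSENEN siRNA and 27.2, 33.2 and 34.1 TPM with the mismatch siRNA (log2 change -3.97, SE 0.87, adjusted p = 0.200). INCENP-201 (ENST00000278849) stood in the opposite order, at 30.7, 18.8 and 29.5 TPM against 15.1, 0.200 and 5.98 TPM (log2 change 2.38, SE 0.95, adjusted p = 0.522). Without PSENEN siRNA library 1, which held the highest value of its group, INCENP-202 was called (adjusted p = 0.0185). With any other library left out its adjusted p was 0.395 to 0.483 (limma), and no other setting called it. Both transcripts differ at their ends and by exon 11 of INCENP-202, 12 coding bases at chr11:62141500-62141511 on the plus strand, shown here in capitals above the junction of INCENP-201.
INCENP-202: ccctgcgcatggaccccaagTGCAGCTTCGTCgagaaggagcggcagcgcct
INCENP-201: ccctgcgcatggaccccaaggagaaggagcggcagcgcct

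The exon itself did not separate the groups. Transcripts with exon 11, reference and assembled, held 39.0%, 61.7% and 46.2% of the TPM with either junction in the PSENEN siRNA libraries and 49.4%, 69.9% and 63.2% in the mismatch siRNA libraries. In the PSENEN siRNA libraries most of that TPM stood in assembled transcripts, at 12.2, 30.2 and 25.4 TPM, beside 0, 8.23 and 0 TPM in the mismatch siRNA libraries. With assembled transcripts INCENP as a whole was at 50.9, 49.4 and 55.4 TPM against 55.4, 63.4 and 54.4 TPM, and the groups overlapped.

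**Figure D4:**
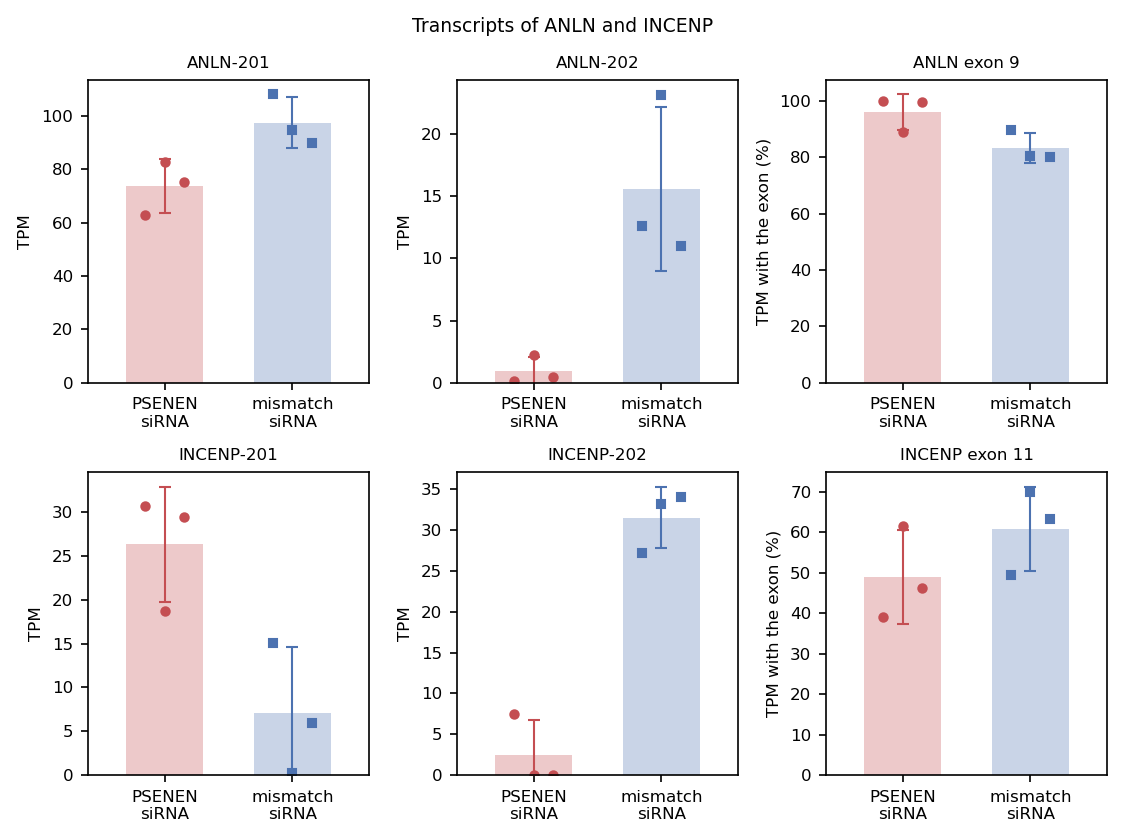
TPM of ANLN-201, ANLN-202, INCENP-201 and INCENP-202, and the percentage of TPM in transcripts with ANLN exon 9 or INCENP exon 11, in the 3 PSENEN siRNA libraries (circles) and the 3 mismatch siRNA libraries (squares); bars are means and error bars are SD (n = 3). All of these transcripts separate the groups, INCENP-201 higher and the others lower with the PSENEN siRNA. The share with the exon overlaps for both genes.

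The other transcripts among the 6 with the smallest p belonged to TOP2A and PRC1. TOP2A-204 (ENST00000578412), a retained intron transcript of 882 bases, was at 8.02, 7.32 and 7.02 TPM with the PSENEN siRNA and 3.44, 4.55 and 3.65 TPM with the mismatch siRNA (log2 change 0.80, SE 0.18, adjusted p = 0.222). PRC1-201 (ENST00000361188), a protein-coding transcript of 4087 bases, was at 22.0, 14.8 and 11.9 TPM against 32.6, 45.5 and 26.8 TPM, without overlap (log2 change -1.07, SE 0.29, adjusted p = 0.319). The shorter PRC1-210 (ENST00000556972) was at 0.962, 0.0311 and 1.77 TPM against 8.14, 3.19 and 4.46 TPM, and PRC1-206 (ENST00000555455) at 0.557, 0.514 and 1.41 TPM against 2.08, 2.75 and 1.91 TPM. These 3 PRC1 transcripts, taken for their small p, were lower in every PSENEN siRNA library, with adjusted p-values of 0.319, 0.330 and 0.434. The other 4 PRC1 transcripts tested had overlapping groups, among them PRC1-211, a retained intron transcript with the highest mean, at 20.1 TPM against 36.7 TPM, and PRC1-202, which had the opposite sign (log2 change 0.37, SE 1.11).

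A 7-base word was also looked up in the members, because an earlier search of these data had found it in the 3′ UTRs of genes with lower levels and it occurs in the coding sequence of PSENEN (in 3 of 3 coding transcripts). The word TGGTTCT was in the 3′ UTR of 6 of the 40 genes (15%), BUB3, KIF23, MAD2L1, NUSAP1, PRC1 and TOP2A, against 21.0% of 10682 tested protein-coding genes. The members with the word had a median change of 0.02 and those without it -0.14, where all genes with it had -0.13 and all genes without it -0.04. The difference over all genes is not independent of the choice of the word, which was made from these same data. PRC1 was the only one of the 6 with an unadjusted p under 0.05, and its site, with the word in capitals, lies in the 3′ UTR of PRC1-201, PRC1-202 and PRC1-210. TOP2A, also with a site, is set beside it.
PRC1: catagtgtaaaTGGTTCTcaaaagcttac
TOP2A: atagaactttaTGGTTCTagtacagatac
The sequence of the siRNA is not used here, and the part of these sites in the PRC1 values was not tested.

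Genes around the mitosis genes were grouped in 7 further lists, and limma called none of their members in either direction in reference transcripts. In the alternative settings ARPP19, described below, was the only one of them called. In the lists of kinetochore and centromere genes, spindle and centrosome genes, and condensin and cohesin, 35, 32 and 17 genes were tested, with medians of -0.01, -0.07 and -0.08. At an unadjusted p under 0.05 there were 1, 2 and 0, against 13% of all genes tested. OIP5, which helps to load CENPA, was at 14.3, 16.2 and 16.8 TPM with the PSENEN siRNA and 23.2, 22.3 and 24.0 TPM with the mismatch siRNA (log2 change -0.53, SE 0.11, adjusted p = 0.136), and NSL1, of the MIS12 complex, averaged 9.17 TPM against 11.7 TPM. CENPW, the most abundant of that list, averaged 46.0 TPM against 41.6 TPM. DEPDC1 averaged 17.2 TPM against 22.3 TPM (20.9 TPM against 22.9 TPM with assembled transcripts, with overlap), NUMA1, which anchors spindle poles, 93.3 TPM against 74.7 TPM, and the β-tubulin TUBB 583 TPM against 634 TPM. The condensin subunits NCAPD2 and NCAPG averaged 82.0 TPM against 105 TPM and 14.2 TPM against 16.9 TPM, and RAD21, the cohesin subunit cleaved at anaphase, 109.9 TPM against 136 TPM. With assembled transcripts RAD21 averaged 143 TPM in both groups.

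Among 19 genes of the anaphase-promoting complex, its adaptors and inhibitors, the median was -0.07. Against 13% of all genes tested, 2 had an unadjusted p under 0.05. These were FBXO5, the inhibitor EMI1, at an average of 14.6 TPM against 20.2 TPM, and UBE2S, which extends ubiquitin chains for the complex, at 37.1 TPM against 45.7 TPM. PTTG1, securin, was the most abundant at 106 TPM against 112 TPM. Among 20 regulators of the late cell cycle genes the median was -0.04 and 4 had an unadjusted p under 0.05, against 13% of all genes tested. E2F1, which drives entry into S phase, was at 11.3, 13.7 and 13.1 TPM with the PSENEN siRNA and 7.41, 5.20 and 7.33 TPM with the mismatch siRNA (log2 change 0.85, SE 0.17, adjusted p = 0.123), and with assembled transcripts averaged 14.4 TPM against 10.95 TPM. E2F4, of the repressor complex, averaged 44.5 TPM against 17.9 TPM in reference transcripts but 61.0 TPM against 65.1 TPM with assembled transcripts. MYBL2, which joins MuvB before FOXM1 does, averaged 83.3 TPM against 76.2 TPM.

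Of 20 genes listed as brakes on mitotic entry and CDK inhibitors 19 were tested, with a median of -0.09. At an unadjusted p under 0.05 there were 4, against 13% of all genes tested. The list also holds genes that favour mitotic entry or serve CDKs, among them ARPP19, CDC25A and CKS2. ARPP19, whose phosphorylated form inhibits the phosphatase PP2A-B55 at mitotic entry, was at 33.3, 32.7 and 36.6 TPM with the PSENEN siRNA and 75.9, 63.2 and 58.8 TPM with the mismatch siRNA, without overlap (log2 change -0.92, SE 0.13, adjusted p = 0.0608). It was not called in reference transcripts, but its sum is the same with assembled transcripts added, and there it was called lower (adjusted p = 0.0455), as it was with array weights (adjusted p = 0.0491) and with assembled bases (adjusted p = 0.0275). CDKN2B, an inhibitor of CDK4 and CDK6, averaged 9.63 TPM against 6.18 TPM, and CKS2, a CDK subunit, 96.8 TPM against 96.1 TPM. Other CDK inhibitors went the other way with assembled transcripts. CDKN1A averaged 23.7 TPM against 37.7 TPM (limma adjusted p = 0.136) and CDKN1B 15.9 TPM against 18.3 TPM, both lower without overlap. The groups of CDKN2A, CDKN2C, CDKN2D and CDKN3 overlapped.

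The DNA replication genes, which are transcribed earlier in the cycle, leaned the other way. Of 42 tested, 25 had positive and 17 negative changes, with a median of 0.09. At an unadjusted p under 0.05 there were 8, against 13% of all genes tested. In reference transcripts the groups of 9 of the 42 did not overlap and were higher, and those of 4 were lower, against 8.21% and 13.7% of all genes tested. With assembled transcripts fewer separated: CDC7, GMNN, CDT1, TYMS and GINS3 upward, and SLBP and RRM2 downward. Of all genes tested with assembled transcripts 14.3% separated downward, and the upward share was not computed. An unadjusted p under 0.05 (limma) was then reached only by CDT1, GINS3 and TYMS, higher, and by RFC3, lower. CDT1, which licenses replication origins, was at 28.9, 41.0 and 35.8 TPM with the PSENEN siRNA and 16.5, 15.9 and 14.8 TPM with the mismatch siRNA (log2 change 1.10, SE 0.15, adjusted p = 0.0611), and with assembled transcripts averaged 41.6 TPM against 28.6 TPM. RFC2, a subunit of the clamp loader, averaged 29.4 TPM against 3.89 TPM in reference transcripts, but with assembled transcripts averaged 50.1 TPM against 35.8 TPM with overlapping groups. PCNA, the sliding clamp, averaged 236 TPM against 218 TPM. The difference between the replication genes and the mitosis genes was not tested.

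**Figure D5:**
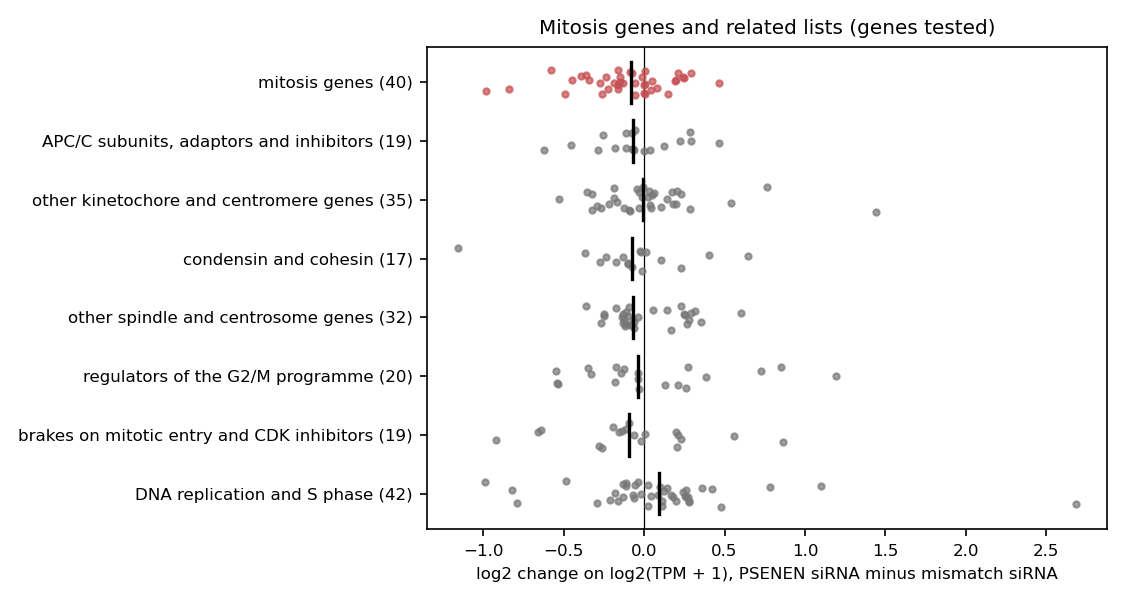
Log2 change on log2(TPM + 1), PSENEN siRNA minus mismatch siRNA, of each tested gene in the 40 mitosis genes and in 7 related lists, with a vertical bar at each median. The medians lie between -0.09 and 0.09, and that of the replication genes is the only one above 0.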

How the data were processed

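RNA sequencing of 6 HaCaT samples gave 1 file each. Per the file headers, StringTie assembled each library and the authors deposited TPM, FPKM and coverage per transcript, with no read counts. Not given in the sources used here: aligner, StringTie version, strandedness. The submitters' processing notes list Bowtie 0.12.2 and mouse builds, which do not match human files. Positions matched GENCODE 29 (GRCh38) for 98.3% of the reference transcripts found in it.

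Each gene's value was the summed TPM of the reference transcripts that carry its name. limma 3.58.1 (R 4.3.3, intensity trend, 4 residual degrees of freedom) compared log2(TPM + 1) over genes, and separately over transcripts, that reached 1 TPM in 3 or more libraries, with Benjamini-Hochberg adjustment. The steps were tested on simulated data. Depth was estimated as coverage divided by FPKM, and no counting intervals can be given. Alternatives were other pseudocounts and filters, FPKM, median-of-ratios, quantile and assembled-base scaling, assembled transcripts, no trend, array weights, the replicate block and each library left out. Python 3.11.15 was used for parsing, sequences and figures.

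The members and lists were chosen with earlier results of these data known. The rule for named genes gives every library's value for the 2 most abundant members of each role and for members whose groups do not overlap, the 6 member transcripts with the smallest p, and from each list the 2 smallest p and the most abundant gene. Sums with and without PRC1 and ANLN, and with transcripts shared between genes, were added after the data were seen.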

Additional observations from a re-analysis of the deposited data

How the results depend on the processing

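No mitosis gene was called in any of the 18 alternative settings, and 26 of the 40 kept the sign of their change in all of them (20 negative, 6 positive). Of 720 recomputed values 46 had another sign and 0 were called. The median change of the 40 genes was -0.00827 with FPKM, -0.0324 with median-of-ratios scaling, -0.0336 with quantile normalization and -0.0136 with assembled bases, and -0.111 to -0.0798 when each library was left out. The median over all genes tested moved with these scalings, from -0.04 to 0.02 with FPKM, 0.00 with median-of-ratios scaling, 0.00 with quantile normalization and 0.02 with assembled bases. Over all genes, 64 were called, 28 with a pseudocount of 0.1 TPM and 7 to 16 when each library was left out. Of the called genes 20 of 64 were higher, beside 23 of 50 with FPKM and 23 of 52 with median-of-ratios scaling. Over all transcripts, 97 were called, 40 without a filter, 34 with a minimum of 5 TPM and 20 to 39 when each library was left out. Of transcripts of mitosis genes 0 to 1 were called when each library was left out, the 1 being INCENP-202 without PSENEN siRNA library 1. The cause of these shifts was not tested, except that fewer samples enter when a library is left out.

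The replicate numbers did not pair the libraries: same-numbered libraries had correlations of -0.05, 0.00 and -0.01 between their deviations from the group means over 15647 genes. With the replicate block 1 gene and 0 transcripts were called (limma), and no mitosis gene. The sums of the 40 genes and the PRC1 result above give the other limits, and with 3 libraries a group and no counts the precision of low values cannot be stated.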

Other observations

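Outside the mitosis genes, the levels that followed the mean log2 level of the 40 members most closely over the 6 libraries were sought among 10704 tested protein-coding genes, as a description. The highest Pearson correlations were those of DHX16, a helicase of splicing (r = 0.995), SEC23A, a coat protein of vesicles that leave the endoplasmic reticulum (r = 0.994), DNAJC10, a reductase of that compartment (r = 0.994), OIP5 (r = 0.993) and MSRB2, a mitochondrial methionine sulfoxide reductase (r = 0.991). All 5 had groups that did not overlap, lower with the PSENEN siRNA, against 13.7% of all genes tested, and none was called by limma. The choice by correlation favours such genes, because the members' mean log2 level itself separated the groups, at 5.29 to 5.35 against 5.42 to 5.47. SEC23A was at 7.57, 10.2 and 10.4 TPM with the PSENEN siRNA and 20.7, 18.9 and 22.6 TPM with the mismatch siRNA. DHX16 was at 22.4, 24.6 and 24.7 TPM against 28.9, 27.2 and 30.1 TPM. The 6 points of each correlation share the split into groups, so the values describe that split as much as any likeness within groups.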
